A study of Mus musculus with 3 samples.

Results

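Glycolysis and the response to low oxygen were followed through 34 genes, chosen by name from the glycolytic enzymes, the carriers of glucose and lactate, and the genes of the hypoxia pathway. All 34 were found by their Entrez gene numbers and were listed in every library, out of 17997 genes listed in any. They comprise 21 genes of enzymes, transporters and control of flux, and 13 hypoxia genes. RNA sequencing had been done on total RNA of 46C mouse embryonic stem cells, a strain 129 line known for its fluorescent Sox1 reporter, grown in serum with leukemia inhibitory factor on gelatin. The empty vector P2 library came from cells that had received an empty vector (PB), collected at passage 2. The Lef1 P2 and Lef1 P5 libraries came from cells given Lef1 (PB-Lef1), the DNA-binding protein that beta-catenin joins in Wnt signalling, collected at passage 2 and at passage 5. The sources used here name neither the oxygen level of the cultures nor whether each was a clone. Each group has 1 library, so no test between conditions was possible, and every interval in parentheses is a 95% interval for counting error only, which leaves out the difference between cultures.

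Glycolysis splits glucose into pyruvate in the cytosol. Its upper part, from hexokinase to triosephosphate isomerase, spends ATP, and its lower part, from glyceraldehyde-3-phosphate dehydrogenase to pyruvate kinase, returns it, after which lactate dehydrogenase can turn pyruvate into lactate. Embryonic stem cells are known for a high rate of glycolysis even where oxygen is present. In the hypoxia pathway, prolyl hydroxylases of the Egln family use oxygen to mark the alpha subunits of hypoxia-inducible factor (HIF), and the Vhl protein then sends them for destruction. When oxygen is short, the alpha subunits Hif1a and Epas1 persist, pair with Arnt and switch on target genes, among them many glycolytic enzymes, Vegfa and Egln genes.

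The empty vector P2 library held 9225401 expected reads, that of Lef1 P2 9170554 and that of Lef1 P5 9380813. Levels are FPKM, so that the length of the transcript and the depth of the library are divided out. Lef1 itself had 1.49 FPKM with empty vector, 135 FPKM at Lef1 P2 and 214 FPKM at Lef1 P5, low without and high with the introduced gene. All 10 stem cell markers on a list that included Pou5f1, Sox2 and Nanog were at 48.2 FPKM or more in each library. Against empty vector P2, 7 of the 10 were lower and 3 higher in Lef1 P2, and none passed the 2-fold rule. Of the 12894 genes at 1 FPKM or more in any library, 40.4% were lower. The lowest ratio was that of Utf1, at 394 and 203 FPKM, and the highest that of Tfcp2l1, at 56.6 and 84.5 FPKM, with empty vector and at Lef1 P2. The 12 primitive endoderm markers summed to 178 FPKM with empty vector, 1846 FPKM at Lef1 P2 and 495 FPKM at Lef1 P5, and all 12 passed the 2-fold rule given below in Lef1 P2. Of 8 fibroblast and feeder markers, 3 or 4 were at 0 in each library, Lum and Postn in all of them, and the sum was at most 18.5 FPKM. The 5 neural markers summed to between 22.1 and 38.6 FPKM, the 6 trophoblast markers to 22.9, 77.1 and 30.8 FPKM with Elf5 at 0 throughout, and the 6 mesoderm markers to at most 2.37 FPKM. Of the trophoblast sum at Lef1 P2, 61.3 of the 77.1 FPKM came from 1 marker, so the sum does not stand for the list.

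The 2-fold rule calls a gene when the log2 ratio of FPKM, with 1 FPKM added to each level, is at least 1 in size and the higher library holds at least 3 FPKM and 20 expected reads. In Lef1 P2 against empty vector P2, 5 members were called higher, 0 lower and 29 not called. Under the same rule 6.49% of the 10651 genes that met the minimum were called higher and 1.82% lower. The 5 were the glucose transporter gene Slc2a3, the enzyme genes Gpi1 and Aldoc, the oxygen sensor gene Egln1 and the growth factor gene Vegfa. Between Lef1 P5 and empty vector P2, 0 members were called higher and 1 lower in Lef1 P5, the HIF subunit gene Epas1, where 1.40% and 1.28% of 10121 genes were called. From Lef1 P2 to Lef1 P5, 4 were called lower (Hk1, Egln1, Vegfa and Ndrg1) and 0 higher, beside 6.86% and 1.88% of 10593 genes. The comparisons share libraries pairwise, so these counts are not independent of each other, and passage cannot be told apart from the introduced gene in Lef1 P5 against empty vector P2.

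**Figure D1:**
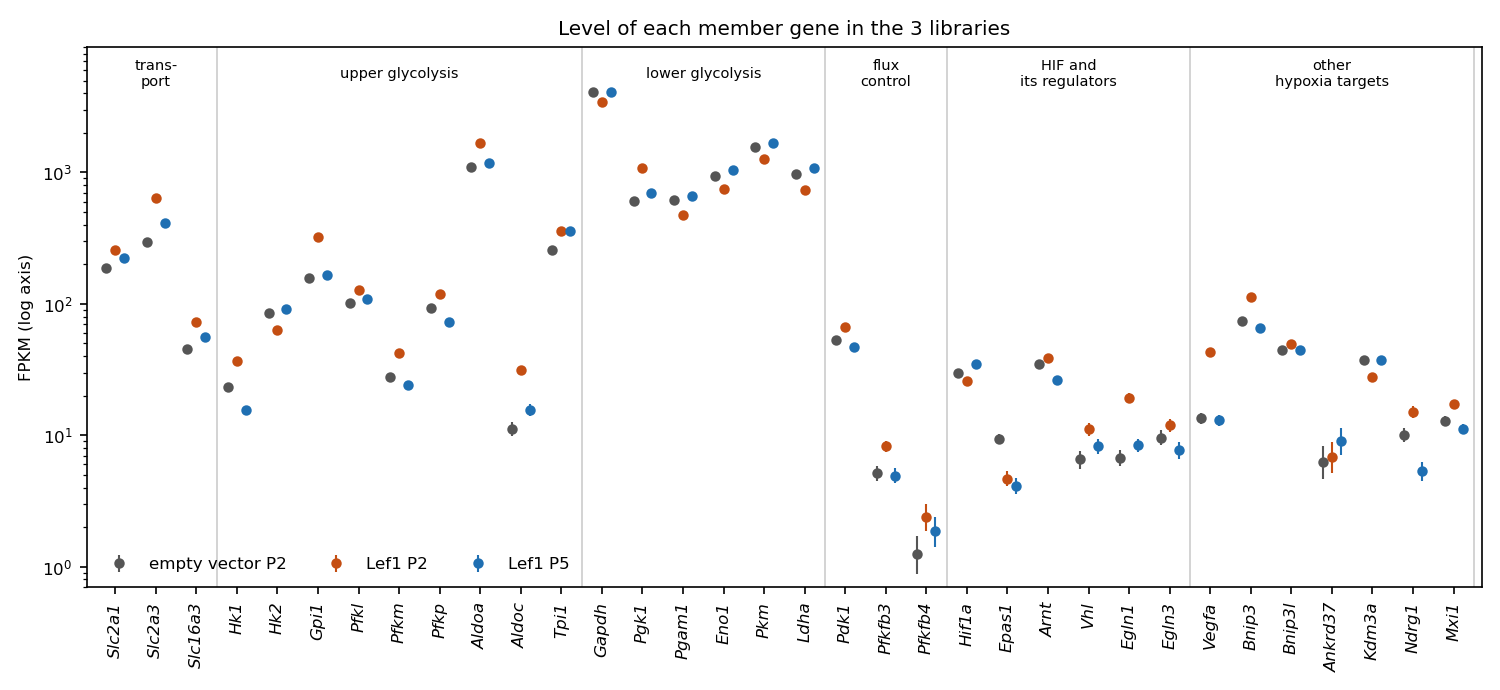
Level of each of the 34 members (FPKM, log axis) in each of the 3 libraries, ordered by role, with 1 library per point and bars for the 95% counting interval. Gapdh lies highest, at 3417 FPKM or more in every library, and Pfkfb4 lowest, under 3 FPKM.

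The start regions of 4 of the 5 members called higher in Lef1 P2, and that of Ldha, which was not called, are shown because HIF is known to bind DNA at the letters ACGTG or GCGTG. They are the 250 bases before the most upstream start in RefSeq (GRCm38.p6), 5′ to 3′ on the gene's strand, with each ACGTG or GCGTG on either strand in capitals. The windows are chr8:124949255-124949504 (minus strand), chr11:78322823-78323072 (plus), chr17:46032378-46032627 (minus), chr7:34230337-34230586 (minus) and chr7:46845554-46845803 (plus).
Egln1: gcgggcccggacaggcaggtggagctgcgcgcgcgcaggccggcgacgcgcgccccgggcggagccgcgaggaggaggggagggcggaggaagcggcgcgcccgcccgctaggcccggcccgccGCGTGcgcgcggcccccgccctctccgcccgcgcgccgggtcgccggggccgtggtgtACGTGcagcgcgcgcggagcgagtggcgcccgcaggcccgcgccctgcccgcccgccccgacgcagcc
Aldoc: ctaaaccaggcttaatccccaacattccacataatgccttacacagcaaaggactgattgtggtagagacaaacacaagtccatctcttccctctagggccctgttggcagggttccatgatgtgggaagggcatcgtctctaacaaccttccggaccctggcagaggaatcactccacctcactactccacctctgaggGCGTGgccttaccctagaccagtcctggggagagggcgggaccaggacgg
Vegfa: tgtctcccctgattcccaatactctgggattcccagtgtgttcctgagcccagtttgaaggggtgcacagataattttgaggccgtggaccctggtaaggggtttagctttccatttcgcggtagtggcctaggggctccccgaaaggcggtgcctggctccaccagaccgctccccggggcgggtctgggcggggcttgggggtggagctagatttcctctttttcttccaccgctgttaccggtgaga
Gpi1: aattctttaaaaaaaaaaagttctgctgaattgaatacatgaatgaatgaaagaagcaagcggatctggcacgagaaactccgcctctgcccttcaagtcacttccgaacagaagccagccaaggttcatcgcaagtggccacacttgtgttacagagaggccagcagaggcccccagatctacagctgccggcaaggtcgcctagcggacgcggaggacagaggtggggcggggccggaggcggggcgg
Ldha: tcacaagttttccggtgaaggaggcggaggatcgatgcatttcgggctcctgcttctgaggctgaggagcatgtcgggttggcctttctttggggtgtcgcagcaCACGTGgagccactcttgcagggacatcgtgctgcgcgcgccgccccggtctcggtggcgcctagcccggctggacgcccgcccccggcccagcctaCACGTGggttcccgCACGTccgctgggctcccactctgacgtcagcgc

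Ldha holds 3 stretches with these letters, Egln1 2 and Aldoc 1, and Vegfa and Gpi1 hold 0 in this window. A stretch of CACGTG, which reads the same on both strands and is also the E-box bound by Myc and related factors, was counted once. Among the 30 members with an entry in the table, 22 (73.3%) hold at least 1 stretch, against 57.3% of the 10284 genes with an entry that reached 1 FPKM in any library and 38.6% of all 27025 genes in the table. The letters contain CG, and the windows had a median of 14 CG pairs in members, 16 in the 10284 genes and 6 in all. A match is a description of the letters, not evidence of binding. The number of stretches did not separate called from uncalled members: Bnip3, not called, has 4, and Pfkp, Pgam1 and Ankrd37, also not called, have 3 each. Slc2a3, Bnip3l, Epas1 and Ndrg1 have no entry.

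The transcript levels of all 3 carrier genes for glucose and lactate were higher in Lef1 P2 than in empty vector P2. Among the 12894 genes at 1 FPKM or more in any library, 59.5% were higher by any amount. Slc2a3 (Entrez gene 20527), which encodes the high-affinity glucose transporter GLUT3, was at 296 FPKM (290.02 to 301) with empty vector, 641 FPKM (632 to 649) at Lef1 P2 and 414 FPKM (407 to 420.5) at Lef1 P5. Lef1 P2 was 2.17-fold (2.12 to 2.22) and Lef1 P5 1.40-fold (1.37 to 1.44) the empty-vector level, so the order was Lef1 P2, Lef1 P5, empty vector P2 with intervals that do not overlap. Slc2a1 (20525), for the widespread transporter GLUT1, was at 189 FPKM (183 to 195) with empty vector, 255 FPKM (248 to 261) at Lef1 P2 and 225 FPKM (219 to 231) at Lef1 P5, in the same order and with a smaller ratio, 1.35-fold (1.30 to 1.40) in Lef1 P2. The order of its 2 Lef1 libraries turns around with median-of-ratios or TMM scaling. Slc16a3 (80879), for the lactate exporter MCT4, was at 44.96 FPKM (42.2 to 47.8) with empty vector, 72.6 FPKM (69.1 to 76.2) at Lef1 P2 and 55.6 FPKM (52.6 to 58.8) at Lef1 P5. The share of Slc2a3 in the summed FPKM of both glucose transporters was 61.0% (60.2 to 61.8) with empty vector, 71.5% (70.96 to 72.1) at Lef1 P2 and 64.8% (64.04 to 65.5) at Lef1 P5.

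The upper part of glycolysis was higher in Lef1 P2 for 8 of 9 enzyme genes, where 59.5% of the 12894 genes at 1 FPKM or more in any library were higher by any amount. The median log2 ratio of the 9 was 0.59, against 0.11 for those genes. This count was the same with median-of-ratios, TMM and CPM scaling. The 9 summed to 1856 FPKM with empty vector, 2772 FPKM at Lef1 P2 and 2042 FPKM at Lef1 P5. In these bulk libraries more transcript per cell and more cells of a kind cannot be told apart, and the primitive endoderm markers move with the same libraries; their part in these results was not tested.

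Gpi1 (14751) encodes glucose-6-phosphate isomerase, which turns glucose-6-phosphate into fructose-6-phosphate. It was at 159 FPKM (154 to 164) with empty vector, 324 FPKM (317 to 331) at Lef1 P2 and 166 FPKM (161 to 171) at Lef1 P5. Lef1 P2 was 2.04-fold (1.97 to 2.12) the empty-vector level, just past the rule with a log2 ratio of 1.02, while empty vector P2 and Lef1 P5 had overlapping intervals. Its expected counts were not whole in any library, as happens where reads are divided between genes, so its level is less certain than the interval shows. Aldoc (11676), the brain-type aldolase, was at 11.2 FPKM (9.89 to 12.6) with empty vector, 31.4 FPKM (29.2 to 33.7) at Lef1 P2 and 15.6 FPKM (14.1 to 17.3) at Lef1 P5, and Lef1 P2 was 2.81-fold (2.44 to 3.24) the empty-vector level. Aldoc made up 1.01% (0.891 to 1.13), 1.85% (1.72 to 1.98) and 1.30% (1.17 to 1.43) of the summed aldolase FPKM in the order empty vector P2, Lef1 P2, Lef1 P5. The aldolase level was therefore carried by Aldoa (11674), the muscle-type form, at 1099 FPKM (1082 to 1117) with empty vector, 1669 FPKM (1647 to 1691) at Lef1 P2 and 1188 FPKM (1170.1 to 1207) at Lef1 P5, 1.52-fold (1.49 to 1.55) higher in Lef1 P2 than in empty vector P2.

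The hexokinases, which trap glucose in the cell by phosphorylation, went opposite ways. Hk1 (15275) was at 23.3 FPKM (21.8 to 24.9) with empty vector, 36.6 FPKM (34.7 to 38.6) at Lef1 P2 and 15.5 FPKM (14.3 to 16.8) at Lef1 P5. Hk2 (15277) was at 85.4 FPKM (82.8 to 87.9) with empty vector, 63.02 FPKM (60.8 to 65.3) at Lef1 P2 and 90.99 FPKM (88.4 to 93.6) at Lef1 P5. Lef1 P2 thus held the highest Hk1 and the lowest Hk2, and Lef1 P5 the lowest Hk1 and the highest Hk2, and no counting intervals overlap, although those of Hk2 in empty vector P2 and Lef1 P5 lie close together. Hk1 was 2.37-fold (2.15 to 2.61) lower in Lef1 P5 than in Lef1 P2, a called difference whose log2 ratio was -1.19 as deposited and -0.99, under the rule, with median-of-ratios scaling. Neither Lef1 library was called against empty vector P2. As a share of the summed FPKM of Hk1 and Hk2, Hk1 was 21.5% (20.3 to 22.7) with empty vector, 36.8% (35.3 to 38.2) at Lef1 P2 and 14.5% (13.5 to 15.6) at Lef1 P5. The sum itself was 109, 99.6 and 106 FPKM, so the make-up differed more than the total.

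Phosphofructokinase, the main control point of glycolysis, is built from 3 kinds of subunit. The liver-type Pfkl (18641) was at 102 FPKM (98.3 to 105) with empty vector, 127 FPKM (123 to 131) at Lef1 P2 and 109.8 FPKM (106 to 113) at Lef1 P5. The platelet-type Pfkp (56421) was at 92.3 FPKM (89.2 to 95.5) with empty vector, 119 FPKM (115 to 122) at Lef1 P2 and 72.8 FPKM (70.1 to 75.5) at Lef1 P5. The muscle-type Pfkm (18642) was at 27.7 FPKM (25.7 to 29.8) with empty vector, 42.3 FPKM (39.8 to 44.8) at Lef1 P2 and 23.9 FPKM (22.1 to 25.9) at Lef1 P5. None was called, and each was highest in Lef1 P2, with ratios to empty vector P2 of 1.25-fold (1.20 to 1.31), 1.29-fold (1.23 to 1.35) and 1.53-fold (1.39 to 1.68) in that order. Pfkl was 45.9% (44.8 to 47.0) of their summed FPKM with empty vector, 44.1% (43.2 to 45.1) at Lef1 P2 and 53.2% (52.02 to 54.3) at Lef1 P5. Tpi1 (21991), triosephosphate isomerase, was at 257 FPKM (248 to 265) with empty vector, 361 FPKM (351 to 371) at Lef1 P2 and 359 FPKM (349 to 369) at Lef1 P5. As deposited, its ratio to empty vector P2 was nearly the same in both Lef1 libraries, 1.41-fold (1.35 to 1.47) and 1.40-fold (1.34 to 1.46), but with median-of-ratios and TMM scaling Lef1 P5 lay above Lef1 P2 by 0.20 and 0.17 on the log2 scale.

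**Figure D2:**
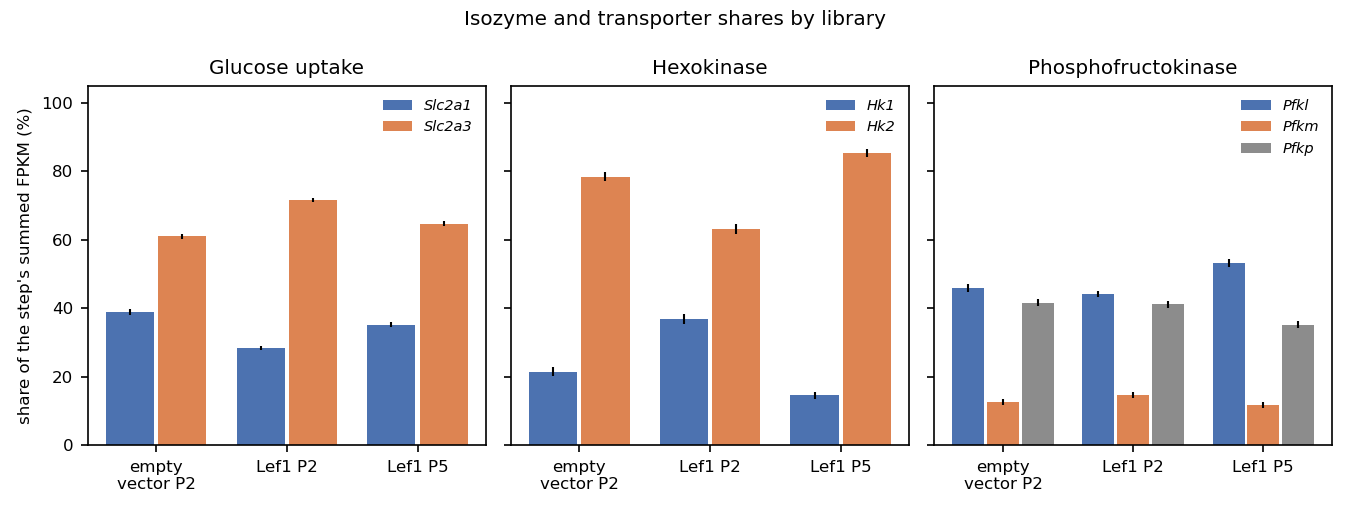
Share of each transporter or isozyme in the summed FPKM of the members of its step (percent) in the 3 libraries, with bars for the 95% counting interval. Hk1 makes up 36.8% of the Hk1 and Hk2 level in Lef1 P2 against 21.5% in empty vector P2 and 14.5% in Lef1 P5.

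The lower part of glycolysis, counted from here on together with Ldha, went the other way in Lef1 P2. Of its 6 genes 5 were lower than in empty vector P2 and 1, Pgk1, was higher, where 40.4% of the 12894 genes were lower by any amount. The median log2 ratio was -0.31, none was called, and the 5 lower genes kept their direction with median-of-ratios, TMM and CPM scaling. The 6 summed to 8759 FPKM with empty vector, 7740 FPKM at Lef1 P2 and 9283 FPKM at Lef1 P5. At Lef1 P5 all 6 were above empty vector P2, by at most 1.15-fold, where 47.0% of the 12894 genes were higher and 52.8% lower.

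Gapdh (14433), glyceraldehyde-3-phosphate dehydrogenase, was at 4056 FPKM (4020.5 to 4092) with empty vector, 3417 FPKM (3385 to 3450.2) at Lef1 P2 and 4123 FPKM (4087 to 4158) at Lef1 P5, and Lef1 P2 was 1.19-fold (1.17 to 1.20) lower than empty vector P2. Its rank by FPKM was 3, 4 and 3 among all listed genes of the libraries, its counts were not whole in the Lef1 libraries, and the processed copies it is known to have in the genome can share its reads. Pgk1 (18655), phosphoglycerate kinase, which makes the first ATP of the pathway, was at 609.6 FPKM (598 to 622) with empty vector, 1086 FPKM (1070.5 to 1103) at Lef1 P2 and 699 FPKM (686 to 711) at Lef1 P5. It was 1.78-fold (1.74 to 1.83) higher in Lef1 P2, and its log2 ratio of 0.83 stayed under the rule. The next steps after it, Pgam1 and Eno1, were lower there. Pgam1 (18648), phosphoglycerate mutase, was at 619.7 FPKM (608 to 632) with empty vector, 474 FPKM (463 to 484) at Lef1 P2 and 658 FPKM (646 to 671) at Lef1 P5. Eno1 (13806), enolase, whose counts were not whole, was at 946 FPKM (931 to 961) with empty vector, 754 FPKM (740.3 to 767) at Lef1 P2 and 1045 FPKM (1029.8 to 1061) at Lef1 P5.

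Pkm (18746), pyruvate kinase, was at 1550.3 FPKM (1534 to 1567) with empty vector, 1269 FPKM (1254 to 1284) at Lef1 P2 and 1684 FPKM (1667 to 1702) at Lef1 P5. Its splice forms M1 and M2 cannot be told apart in a gene table. Ldha (16828), which reduces pyruvate to lactate, was at 977 FPKM (961 to 993) with empty vector, 739.9 FPKM (726 to 754) at Lef1 P2 and 1074 FPKM (1057 to 1090.4) at Lef1 P5, 1.32-fold (1.29 to 1.35) lower in Lef1 P2 than in empty vector P2. Pgam1, Eno1, Pkm and Ldha shared the order Lef1 P5, empty vector P2, Lef1 P2 from high to low, and no interval overlapped between libraries. These differences are small beside the 2-fold rule, and with 1 library a group the spread between cultures is unknown.

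Read along the pathway with the members of each step summed, the steps did not move together in Lef1 P2. Glucose uptake had 485 FPKM with empty vector and 896 FPKM at Lef1 P2, 1.85-fold, aldolase at 1110.5 and 1700.1 FPKM, 1.53-fold, and phosphofructokinase at 222 and 288 FPKM, 1.30-fold. Pgam1, Eno1, Pkm and Ldha, each the single member of its step, were lower by 1.22-fold to 1.32-fold. Adding the isozymes outside the members, a sum chosen after the data were seen, left phosphoglycerate mutase 1.29-fold, enolase 1.25-fold and pyruvate kinase 1.22-fold lower. Lactate dehydrogenase with Ldhb and Ldhc added was only 1.10-fold lower, at 1175.8 FPKM with empty vector and 1070.7 FPKM at Lef1 P2, since Ldhb was higher there. Lactate export with Slc16a1 and Slc16a7 added was 1.35-fold higher, against 1.61-fold for Slc16a3. The share of all reads that fell on the 15 enzyme genes was nearly equal in both passage 2 libraries, 1.84% (1.84 to 1.85) in each, and was 1.97% (1.97 to 1.98) at Lef1 P5. The near equality was lost without Gapdh, at 1.30% (1.29 to 1.31) with empty vector and 1.39% (1.38 to 1.39) at Lef1 P2. Of all reads, the upper part took 0.387% (0.383 to 0.391), 0.555% (0.550 to 0.560) and 0.414% (0.410 to 0.418) in the order empty vector P2, Lef1 P2, Lef1 P5. The lower part took 1.46% (1.45 to 1.46), 1.29% (1.28 to 1.30) and 1.56% (1.55 to 1.57).

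**Figure D3:**
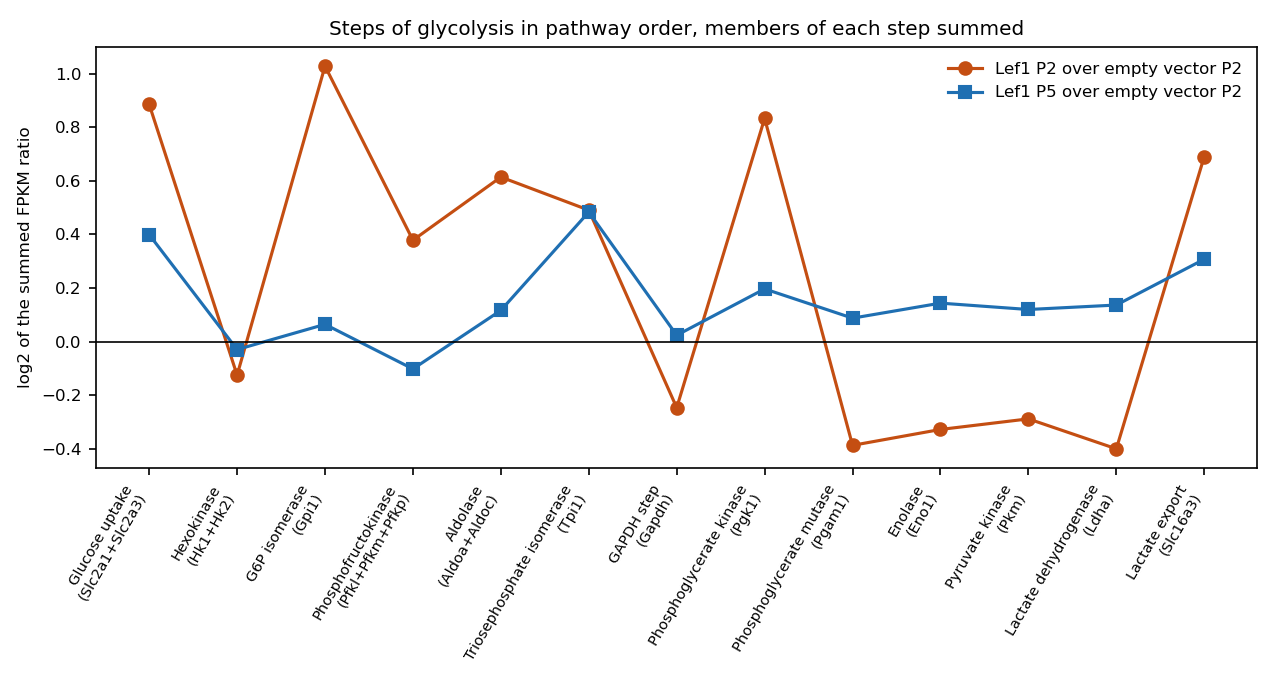
Log2 ratio of the FPKM of each step, summed over its members only, to empty vector P2, in pathway order from glucose uptake to lactate export, for Lef1 P2 (circles) and Lef1 P5 (squares), with 1 library per point. In Lef1 P2 the values range from 1.03 at Gpi1 to -0.40 at Ldha (-0.14 for the step with Ldhb and Ldhc added), while in Lef1 P5 they lie between -0.10 and 0.48.

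The 3 genes that steer carbon flux were higher in Lef1 P2 than in empty vector P2, as were 59.5% of the 12894 genes, and none was called. Pdk1 (228026), a kinase that shuts off pyruvate dehydrogenase and is a known HIF target, was at 53.1 FPKM (51.1 to 55.3) with empty vector, 66.7 FPKM (64.4 to 69.04) at Lef1 P2 and 47.2 FPKM (45.3 to 49.2) at Lef1 P5. Pfkfb3 (170768), which makes the activator of phosphofructokinase, was at 5.15 FPKM (4.52 to 5.85) with empty vector, 8.24 FPKM (7.43 to 9.11) at Lef1 P2 and 4.93 FPKM (4.31 to 5.61) at Lef1 P5. Its relative Pfkfb4 (270198) was at 1.24 FPKM (0.877 to 1.70) with empty vector, 2.37 FPKM (1.85 to 2.98) at Lef1 P2 and 1.86 FPKM (1.41 to 2.40) at Lef1 P5, under the minimum of 3 FPKM throughout, and was the only member that did not meet it. Lef1 P2 was highest for all 3, but for Pfkfb4 its interval overlaps that of Lef1 P5, which also overlaps that of empty vector P2. For Pfkfb3 the intervals of empty vector P2 and Lef1 P5 overlap.

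The HIF pathway's own genes did not share a direction. Of the 6, 4 were higher and 2 lower in Lef1 P2 than in empty vector P2, with a median log2 ratio of 0.21. Of the 12894 genes at 1 FPKM or more in any library, 59.5% were higher, with a median of 0.11. With median-of-ratios or TMM scaling 3 of the 6 were higher, at medians of 0.05 and 0.06. Hif1a (15251), the main oxygen-regulated subunit, which is controlled chiefly at the protein level, was at 30.00 FPKM (28.4 to 31.7) with empty vector, 25.99 FPKM (24.5 to 27.6) at Lef1 P2 and 35.1 FPKM (33.3 to 36.8) at Lef1 P5. Epas1 (13819), which encodes the alternative subunit HIF-2 alpha, was at 9.40 FPKM (8.56 to 10.3) with empty vector, 4.69 FPKM (4.10 to 5.34) at Lef1 P2 and 4.14 FPKM (3.59 to 4.75) at Lef1 P5. Both Lef1 libraries lay under empty vector P2 for Epas1, 2.00-fold (1.71 to 2.36) lower in Lef1 P2 and 2.27-fold (1.92 to 2.69) lower in Lef1 P5, and their own intervals overlap. The log2 ratios were -0.87 and -1.02, so Lef1 P5 passed the rule and Lef1 P2 did not. With median-of-ratios scaling this turns around, with Epas1 called lower in Lef1 P2 and not in Lef1 P5, and with TMM it is called in both.

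Arnt (11863), the partner that both alpha subunits need, was at 35.1 FPKM (33.3 to 37.04) with empty vector, 38.7 FPKM (36.8 to 40.7) at Lef1 P2 and 26.1 FPKM (24.6 to 27.8) at Lef1 P5. Its position in Lef1 P2 relative to empty vector P2 depends on the scaling, with a log2 ratio of 0.14 as deposited and -0.02 with median-of-ratios or TMM. Vhl (22346), which recognises hydroxylated alpha subunits, was at 6.56 FPKM (5.59 to 7.65) with empty vector, 11.1 FPKM (9.82 to 12.5) at Lef1 P2 and 8.23 FPKM (7.15 to 9.43) at Lef1 P5. Egln1 (112405), the prolyl hydroxylase PHD2 that is the main oxygen sensor, was at 6.74 FPKM (5.87 to 7.70) with empty vector, 19.2 FPKM (17.8 to 20.8) at Lef1 P2 and 8.37 FPKM (7.41 to 9.42) at Lef1 P5. Lef1 P2 stood apart from both other libraries for Egln1, 2.86-fold (2.44 to 3.35) the empty-vector level and 2.30-fold (1.99 to 2.66) that of Lef1 P5, and both differences were called. The call against Lef1 P5 was lost with median-of-ratios and with TMM scaling. Egln3 (112407), the related hydroxylase PHD3, was at 9.61 FPKM (8.42 to 10.9) with empty vector, 11.9 FPKM (10.5 to 13.3) at Lef1 P2 and 7.70 FPKM (6.65 to 8.87) at Lef1 P5, and only Lef1 P2 and Lef1 P5 had level intervals that do not overlap. The ratio intervals to empty vector P2 still left out 1, at 1.04 to 1.48 for Lef1 P2 and 0.66 to 0.97 for Lef1 P5.

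Among the 7 other hypoxia targets, 6 were higher in Lef1 P2 than in empty vector P2, with a median log2 ratio of 0.39, and 1 was called. Of the 12894 genes at 1 FPKM or more in any library, 59.5% were higher by any amount, with a median of 0.11. Of all genes that met the minimum, 6.49% were called higher. With median-of-ratios or TMM scaling 4 of the 7 were higher, at a median of 0.24, since Bnip3l and Ankrd37 turned lower. Vegfa (22339), the vascular growth factor, was at 13.4 FPKM (12.2 to 14.8) with empty vector, 42.9 FPKM (40.6 to 45.3) at Lef1 P2 and 12.97 FPKM (11.7 to 14.3) at Lef1 P5. Lef1 P2 was 3.19-fold (2.85 to 3.57) the empty-vector level, the highest ratio of any member, and 3.31-fold (2.95 to 3.71) the level of Lef1 P5, while empty vector P2 and Lef1 P5 overlap. The 9 Vegfa transcripts in the table are not separated. Bnip3 (12176), which directs mitochondria to autophagy, was at 73.7 FPKM (69.5 to 78.1) with empty vector, 113 FPKM (108 to 119) at Lef1 P2 and 65.6 FPKM (61.7 to 69.7) at Lef1 P5, 1.54-fold (1.43 to 1.66) the empty-vector level in Lef1 P2 and not called. Its relative Bnip3l (12177) was at 44.4 FPKM (42.01 to 46.9) with empty vector, 49.1 FPKM (46.6 to 51.8) at Lef1 P2 and 44.3 FPKM (41.9 to 46.7) at Lef1 P5, with overlapping intervals throughout and a sign that turns with median-of-ratios and TMM scaling.

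Ndrg1 (17988), a stress-responsive gene that is widely used as a hypoxia marker, was at 10.1 FPKM (8.89 to 11.3) with empty vector, 15.03 FPKM (13.6 to 16.6) at Lef1 P2 and 5.33 FPKM (4.49 to 6.28) at Lef1 P5. The order was Lef1 P2, empty vector P2, Lef1 P5, and the Lef1 libraries differed by 2.82-fold (2.32 to 3.44), which was called. Mxi1 (17859), a Myc antagonist, was at 12.9 FPKM (11.9 to 14.00) with empty vector, 17.3 FPKM (16.1 to 18.5) at Lef1 P2 and 11.2 FPKM (10.3 to 12.2) at Lef1 P5. Kdm3a (104263), a histone H3K9 demethylase, was at 37.6 FPKM (35.8 to 39.4) with empty vector, 27.7 FPKM (26.2 to 29.3) at Lef1 P2 and 37.7 FPKM (35.9 to 39.5) at Lef1 P5, and was the target that was lower in Lef1 P2. Ankrd37 (654824) was at 6.28 FPKM (4.66 to 8.28) with empty vector, 6.86 FPKM (5.15 to 8.95) at Lef1 P2 and 8.98 FPKM (7.04 to 11.3) at Lef1 P5, on 50 to 73 reads, so that its libraries could not be told apart at this depth.

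**Figure D4:**
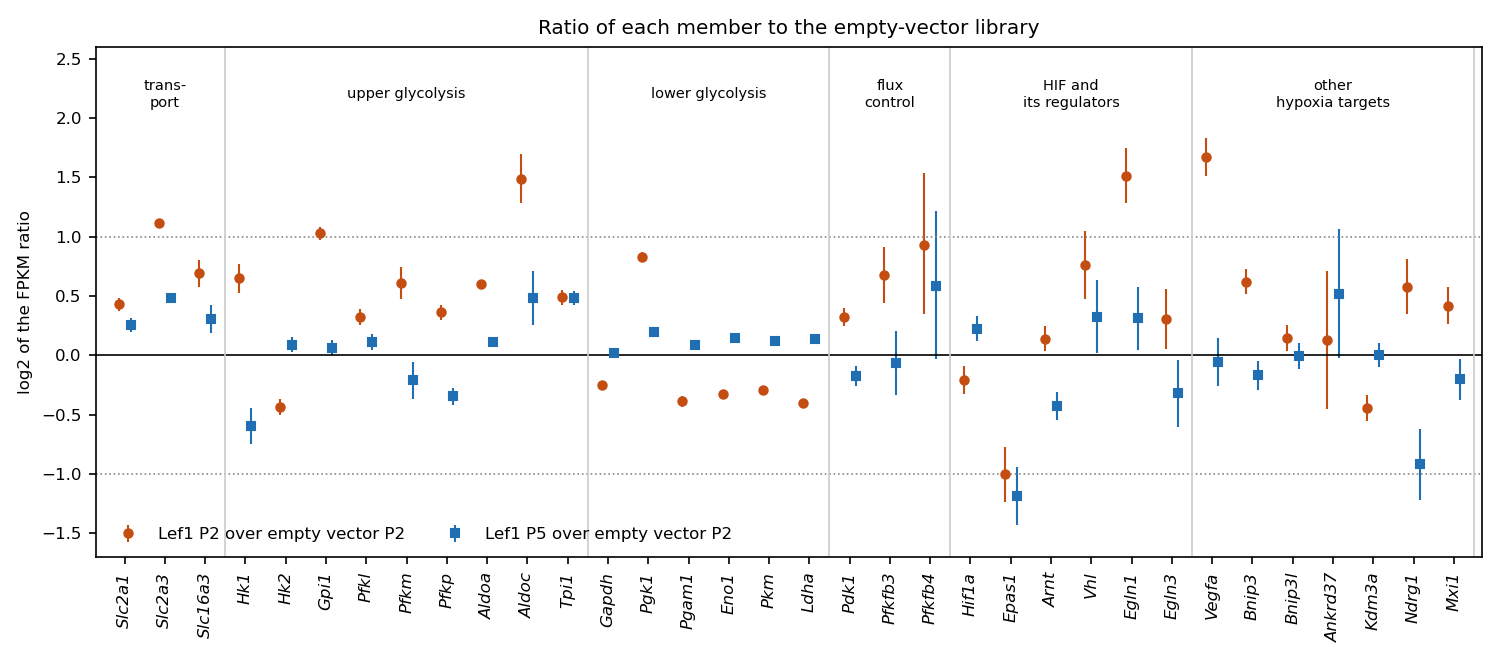
Log2 of the FPKM ratio of each member to empty vector P2, for Lef1 P2 (circles) and Lef1 P5 (squares), with bars for the 95% counting interval and dotted lines at 2-fold (the rule itself adds 1 FPKM to each level). In Lef1 P2 Vegfa, Egln1, Aldoc, Slc2a3 and Gpi1 lie above the upper line, and Epas1 lies at or under the lower line in both libraries.

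By group, the 21 enzyme, transporter and control genes had a median log2 ratio of 0.49 in Lef1 P2 against empty vector P2, with 15 higher by any amount, and the 13 hypoxia genes 0.28, with 10 higher. With median-of-ratios and TMM scaling the first count stayed at 15 and its median was 0.33, while the hypoxia genes had 7 of 13 higher and medians of 0.13 and 0.14. All measured genes had a median of 0.11 as deposited, with 59.5% of them higher by any amount. Median-of-ratios and TMM scaling moved the median of all genes by -0.14 each, and the higher share of all calls from 78.1% to 62.3% and 62.5%. Under both, Gpi1 and Slc2a3 were no longer called, while Aldoc, Egln1 and Vegfa were. For Lef1 P5 over empty vector P2 the medians were 0.11 and -0.05, with 16 of 21 and 5 of 13 higher. All measured genes had -0.02, with 47.0% higher. For Lef1 P5 over Lef1 P2 they were -0.38 and -0.55 beside -0.17, with 15 of 21 and 10 of 13 lower, where 63.0% of genes were lower and 36.9% higher. With median-of-ratios or TMM scaling 13 of 21 and 8 of 13 were lower. There median-of-ratios and TMM scaling moved the median of all genes by 0.18 and 0.16, and the higher share of all calls from 21.5% to 45.8% and 43.4%. With median-of-ratios scaling Vegfa and Ndrg1 were the members called lower, and with TMM Hk1, Vegfa and Ndrg1. Slc2a3, Aldoc, Tpi1, Pfkfb4 and Ankrd37 stood highest over empty vector P2 at Lef1 P5, by a rounded 1.40-fold to 1.5-fold. None was called, and intervals overlapped for Pfkfb4 and Ankrd37.

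Genes of the same pathways outside the members were read from lists drawn up by function, with earlier results of these data known. Their counts beside the shares of all genes are therefore a description only. Of 46 other hypoxia targets, 9 were called higher and 0 lower in Lef1 P2, of 32 that met the minimum, with a median log2 ratio of 0.54, where 6.49% of all genes that met it were called higher and 1.82% lower. The greatest ratios were those of P4ha2, 10.4-fold (8.90 to 12.2), and P4ha1, 4.53-fold (4.14 to 4.96), which hydroxylate collagen in the endoplasmic reticulum, and of Wsb1, a ubiquitin ligase adaptor, 4.46-fold (4.07 to 4.89). Their levels, in the order empty vector P2, Lef1 P2, Lef1 P5, were 8.53, 88.7 and 25.01 FPKM for P4ha2, 15.96, 72.2 and 17.2 FPKM for P4ha1 and 25.5, 114 and 33.6 FPKM for Wsb1. The other 6 were Plod2, a collagen lysyl hydroxylase (34.04, 87.9 and 38.2 FPKM), Anxa2, a membrane-binding protein (28.6, 85.6 and 31.4 FPKM), Stc2, a secreted glycoprotein (3.68, 10.8 and 8.64 FPKM), Bhlhe40, a transcription repressor (11.3, 28.2 and 17.6 FPKM), Ero1a, an oxidase for protein folding (21.4, 50.2 and 26.8 FPKM), and P4hb, protein disulfide isomerase and a subunit of collagen prolyl hydroxylase (153, 331 and 192 FPKM). The primitive endoderm markers given above were highest in the same library, and their part in the hypoxia genes' levels was not tested either.

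Some classical targets were barely expressed: Car9, for a carbonic anhydrase at the cell surface, had 0.68, 1.55 and 0.45 FPKM in that order, and Adm, for the vessel-widening peptide adrenomedullin, 0.66, 0.66 and 0.56 FPKM. Ddit4, an inhibitor of mTORC1 signalling, was well expressed at 96.1, 104 and 69.1 FPKM. None of the 3, which were chosen after their values were seen, was called. At Lef1 P5, compared with empty vector P2, P4ha2 and Stc2 were called higher and the liprin gene Ppfia4 lower (8.08 and 3.52 FPKM), of 30 that met the minimum and beside 1.40% and 1.28% of all genes. Compared with Lef1 P2, 8 of the 46 were called lower, of 32 that met the minimum and beside 6.86% of all genes that did. They were P4ha1, P4ha2, Plod1, Plod2, Wsb1, Anxa2, Nupr1 and Selenbp1. Plod1 had 19.9, 34.95 and 14.4 FPKM, Nupr1 14.4, 27.9 and 10.4 FPKM and Selenbp1 2.80, 3.22 and 1.04 FPKM in the same library order.

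Of 32 other genes of glycolysis and pyruvate handling, 3 were called higher and 1 lower in Lef1 P2, of 23 that met the minimum, beside 6.49% and 1.82% of all genes. Bsg, the chaperone that brings the lactate carriers to the membrane, had 227, 486 and 267 FPKM in the order empty vector P2, Lef1 P2, Lef1 P5. Hkdc1, a further hexokinase-like gene, was at 0.22, 4.69 and 1.39 FPKM, and the muscle mutase Pgam2 at 3.96, 11.1 and 12.2 FPKM. The muscle enolase Eno3 was lower, at 17.5, 7.32 and 10.3 FPKM. Pgam1 and Eno1, the dominant forms of the same steps, were 1.31-fold and 1.26-fold lower at Lef1 P2. Among 11 further genes of HIF regulation 10 met the minimum and 1 was called higher in Lef1 P2, Siah2, a ubiquitin ligase for Egln proteins (3.30, 7.81 and 4.59 FPKM). At Lef1 P5 Pgam2 was called higher than in empty vector P2, 1 of 22 glycolysis genes that met the minimum, beside 1.40% of all genes. Compared with Lef1 P2, Hkdc1 and Pdk2, a relative of Pdk1 (6.82, 12.2 and 3.97 FPKM), were called lower. They were 2 of 23 that met the minimum, beside 6.86% of all genes.

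**Figure D5:**
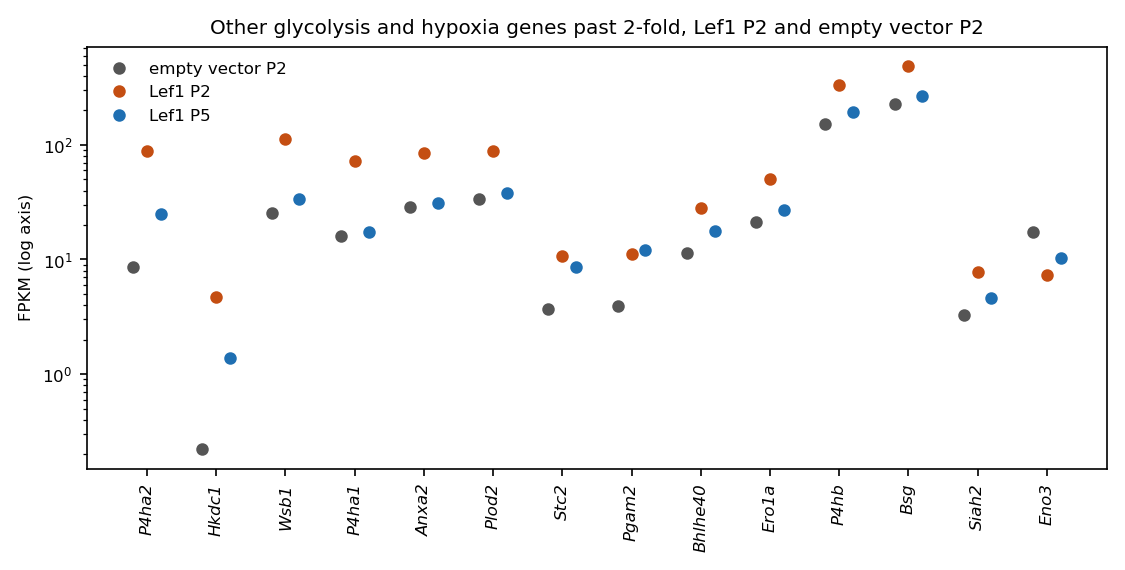
FPKM (log axis) in the 3 libraries of the 14 glycolysis and hypoxia genes outside the members that passed the 2-fold rule between Lef1 P2 and empty vector P2, ordered by that ratio, 1 library per point. All but Eno3 are higher in Lef1 P2, and among those 13 only Pgam2 has its Lef1 P5 point above that of Lef1 P2.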

How the data were processed

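The authors deposited 1 gene table per library, which per the file headers holds FPKM and expected counts by Entrez number, with transcript names and lengths. Bowtie 0.12.2 and mm8 are named in the submitters' processing notes. The counting program, its use of strand and its handling of shared reads were not given in the sources used here. The tables list values from 0.01 FPKM, and a missing row was taken as 0. Symbols came from RefSeq's GRCm38.p6 table (17951 of 17997 numbers matched), and promoter windows from the same build. For 23 of 30 members with a window, the bases just after the start were found in a GENCODE transcript of that gene, which checks the strand; Ldha and Vegfa were not among them.

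FPKM values were used as deposited, with a pseudocount of 1 FPKM. Intervals are exact Poisson (levels), conditional binomial (ratios) and Clopper-Pearson (shares) intervals at 95%, from expected counts rounded to whole reads for ratios and shares. Where the text says that intervals overlap, level intervals are meant. The interval of the ratio can then still leave out 1, as for Bnip3l in Lef1 P2 over empty vector P2 (1.03 to 1.19). Without molecular identifiers a read is not an independent molecule, so intervals cover counting error only. Counts were called not whole when off by more than 0.005 reads. TMM factors came from edgeR 4.0.16 on rounded expected counts. Python 3.11.15 and scipy 1.17.1 were used, and the call rule was tested on simulated data. All 34 members are named, and other genes of the lists where called, plus examples chosen after their values were seen. The members and lists were chosen with earlier results of these data known.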

Additional observations from a re-analysis of the deposited data

How the results depend on the processing

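Each group has 1 library, so the spread between cultures is unknown. No paired analysis was possible because each group has 1 library. Counts of called members depended on scaling and threshold. In Lef1 P2 against empty vector P2, 5 higher became 3 with median-of-ratios, 3 with TMM and 13 at 1.5-fold. The count called lower went from 0 to 1 under each of these. Calls over all genes shifted the same way under both scalings. The higher calls fell from 691 to 502 (median-of-ratios) and 509 (TMM), and the lower calls rose from 194 to 304 and 305. In Lef1 P5 against empty vector P2, 1 lower became 0 with a pseudocount of 5, with median-of-ratios and with a minimum of 10 FPKM, and 2 at 1.5-fold. Over all genes 130 lower became 112 with median-of-ratios. In Lef1 P5 against Lef1 P2, 4 lower became 2 with a pseudocount of 5 or median-of-ratios and 12 at 1.5-fold. Over all genes 727 lower became 450 with median-of-ratios. The counts at 1.5-fold, with a pseudocount of 5 and with a minimum of 10 FPKM are given without the share of all genes. They therefore do not show whether members differ from other genes. The median of enzymes and transporters in Lef1 P2 against empty vector P2 was 0.38 with a pseudocount of 5 and 0.33 with median-of-ratios or TMM, against 0.49, and in Lef1 P5 against Lef1 P2 -0.18 with median-of-ratios and -0.20 with TMM, against -0.38. Without Gapdh the enzymes took 1.30%, 1.39% and 1.42% of reads in the order empty vector P2, Lef1 P2, Lef1 P5. Their shares in both passage 2 libraries were then no longer nearly equal. The cause was not tested. No called member ratio changed sign. Of 102 member ratios 8 changed sign with median-of-ratios, 8 with TMM and 1 with CPM.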

Other observations

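The pentose phosphate pathway branches off after hexokinase and supplies NADPH and ribose. None of its 7 genes was called in Lef1 P2 or Lef1 P5 against empty vector P2. In Lef1 P2, 5 of 7 were lower than in empty vector P2, with a median log2 ratio of -0.30 beside 0.11 for all measured genes. Of the 12894 genes at 1 FPKM or more in any library, 40.4% were lower. The entry enzyme gene G6pdx had 39.2, 23.2 and 49.7 FPKM in the order empty vector P2, Lef1 P2, Lef1 P5, and was called higher in Lef1 P5 than in Lef1 P2, 2.14-fold (1.94 to 2.38). In the same order Pgd was at 67.02, 50.2 and 79.6 FPKM, Taldo1 at 210.5, 151 and 202 FPKM and Tkt at 188, 152 and 179 FPKM, so the 4 genes had their lowest level in Lef1 P2, as did Pgam1, Eno1, Pkm and Ldha of lower glycolysis. Rpe was also lowest there, at 24.83, 22.99 and 26.24 FPKM. Pgls and Rpia went the other way, at 57.04, 70.41 and 45.14 FPKM and at 4.07, 5.36 and 6.26 FPKM.

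The 5 genes given next, which carry pyruvate into mitochondria and oxidise it, were not called in any comparison, and are given in the same order. Pdha1, the catalytic subunit gene of pyruvate dehydrogenase, was at 114, 111 and 161 FPKM, Pdhb at 101, 97.2 and 113 FPKM and Dlat at 24.1, 22.1 and 20.3 FPKM. The mitochondrial pyruvate carrier genes Mpc1 and Mpc2 were at 24.5, 28.8 and 28.5 FPKM and 12.7, 14.9 and 13.7 FPKM. Ldhb, the lactate dehydrogenase subunit that favours lactate use, was at 198, 329.98 and 176 FPKM, highest in Lef1 P2, where Ldha was lowest. Ldhb was not called either.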
